A study of Mus musculus with 2 samples.

Results

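The 53 genes described here carry the vertebrate cell division cycle and fall into 3 groups by the phase in which they act. They are 14 genes of G1 (cyclins, kinases, kinase inhibitors and the retinoblastoma and E2F genes), 17 genes of DNA replication and 22 genes of mitosis. They were chosen by symbol, matched through the Ensembl identifier without its version, from 43346 genes with such identifiers, and all 53 were found. Their RNA was measured in limb tissue of B6NCrl mouse embryos, 14.5 days old, in 2 libraries of total RNA that the labels number as biological replicates 1 and 2. The input was 10 ng of RNA per library, and no treatment or second condition is recorded. Both libraries belong to 1 group, so levels are described, and a difference between them compares libraries, not conditions.

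The libraries held 34193161 and 32879425 expected counts (estimated reads per gene, which need not be whole), of which 5.29% and 5.2% were spike-in RNA. The members had 409 to 31982 counts in replicate 1 and 354 to 33345 in replicate 2. The libraries did not match their labels in 1 respect. The labels give both as pooled male and female, yet the Y-linked genes Ddx3y, Kdm5d, Uty and Eif2s3y stood at 29.6, 15.0, 14.0 and 37.6 TPM in replicate 1 with 0 counts each in replicate 2, where a count of 0 allows up to 3. Xist, the RNA of the inactive X chromosome, stood at 0.03 and 79.0 TPM. The labels also give both samples 1 donor, pup and pregnancy number and collection on different days, so the spread between them may hold more or less than that between animals. As checks of the tissue, all 6 limb genes tested (among them Prrx1 at 87.0 and 102 TPM) were detected, and all 4 liver genes tested lay at 1 TPM or below.

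All 53 genes were detected, with at least 1 TPM (transcript abundance per length, brought to 1 total per library) in both libraries. Of 21474 protein-coding genes, 61.4% met the same rule. The median detected protein-coding gene stood at 18.6 TPM. Of the 53 cell cycle genes, 46 lay above that level and 16 were among the top 10% of detected genes. The lowest member was the transcription factor gene E2f1 at 7.26 and 7.14 TPM, and the highest was the G1 kinase gene Cdk4 at 1250.4 and 1311 TPM. The sum of the 53 was 5776 TPM in replicate 1 and 5972 TPM in replicate 2. In a bulk tissue, fewer dividing cells and less RNA per dividing cell cannot be told apart.

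Cells pass from growth to division through waves of kinase activity. D-type cyclins with Cdk4 or Cdk6, followed by cyclin E with Cdk2, phosphorylate the retinoblastoma proteins and free E2F factors to switch on the replication genes. Origins loaded with the Mcm2 to Mcm7 ring by Cdc6 and Cdt1 then fire, and Cdk1 with cyclins A and B drives the chromosomes into mitosis until the anaphase-promoting complex destroys the cyclins. Genes of mitosis are known to be held silent and later activated through a promoter element named CHR, often together with CCAAT elements bound by NF-Y. In the embryonic limb, dividing mesenchyme supplies the cells of cartilage, tendon and connective tissue, and cells leave the cycle as cartilage and muscle differentiate.

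The promoters of the members differed by phase in which of these elements they held. RefSeq windows on GRCm38.p6, from 250 bases before to 50 after the annotated start, were given for 42 of the 53 genes. Windows were not matched for Ccnd1, Ccnd2, Ccne2, Rb1, Mcm4, Gins1, Gins2, Ccna2, Aurkb, Kif20a and Tpx2. The words searched on both strands were TTTCCCGC, TTTCGCGC, TTTGCCGC and TTTGGCGC for E2F, TTTGAA and TTTAAA for CHR, and CCAAT, which can overlap one another. An E2F word stood in 7 of 14 replication genes, 2 of 10 G1 genes and 1 of 18 mitosis genes, against 4.72% of 10276 detected protein-coding genes. A CHR word stood in 16 of 18 mitosis genes, 4 of 14 replication genes and 2 of 10 G1 genes, against 22.8%. CCAAT stood in 16 of 18 mitosis genes, 11 of 14 replication genes and 4 of 10 G1 genes, against 43% of detected genes. CHR and CCAAT occurred together in 15 of 18 mitosis windows and in 10.9% of the windows of detected genes. The CHR words of the mitosis genes lay close to the start: 14 of 18 genes had 1 within 50 bases on either side, against 6.41% of detected genes. Bub1 and Nusap1 were the mitosis genes with a window and no CHR word. These shares describe letters in a window. They are not binding data, and a word that is absent says nothing about the factor.

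The following stretches are shown because they carry these elements or lack them. They come from the mitotic cyclins and from the gene of each phase that was most abundant over all transcripts. Mcm6 was added after the counts were seen, as the member with the most E2F words. Capitals mark the E2F, CHR and CCAAT words on either strand (a CCAAT on the other strand reads ATTGG), each sequence is 5′ to 3′ along the gene, and positions count from 0 at the annotated start. Bases in annotated exons were left out except for at most 30.
Cdk1, chr10:69352913-69353112, minus strand: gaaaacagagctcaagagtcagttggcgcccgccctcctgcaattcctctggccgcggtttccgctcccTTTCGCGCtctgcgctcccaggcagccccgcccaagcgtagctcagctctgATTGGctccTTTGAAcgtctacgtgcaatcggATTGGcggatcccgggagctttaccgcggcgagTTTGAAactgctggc
Ccnb2, chr9:70421555-70421754, minus strand: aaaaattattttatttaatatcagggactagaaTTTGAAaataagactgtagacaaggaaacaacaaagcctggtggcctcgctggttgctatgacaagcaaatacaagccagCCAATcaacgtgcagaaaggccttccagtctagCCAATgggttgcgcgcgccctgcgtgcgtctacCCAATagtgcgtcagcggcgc
Ccnb1, chr13:100786571-100786686, minus strand: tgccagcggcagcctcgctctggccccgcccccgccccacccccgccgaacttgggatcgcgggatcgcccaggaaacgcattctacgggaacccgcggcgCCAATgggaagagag
Ccnb1, CHR word, chr13:100786511-100786540, minus strand: agcggcccggggTTTAAAcctaagcccggc
Mcm6, chr1:128359706-128359905, minus strand: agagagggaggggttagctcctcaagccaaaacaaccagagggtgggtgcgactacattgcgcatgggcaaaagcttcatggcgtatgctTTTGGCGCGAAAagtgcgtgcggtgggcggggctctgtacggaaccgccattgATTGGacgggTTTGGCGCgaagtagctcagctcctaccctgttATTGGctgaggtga
Pcna, CCAAT word, chr2:132253251-132253280, minus strand: aaccacgggtacgATTGGtccttgaggaga
Cdk4, chr10:127063335-127063534, plus strand: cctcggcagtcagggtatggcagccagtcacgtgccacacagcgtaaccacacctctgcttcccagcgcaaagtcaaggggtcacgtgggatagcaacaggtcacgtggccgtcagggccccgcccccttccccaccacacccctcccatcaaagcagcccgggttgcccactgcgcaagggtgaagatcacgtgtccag

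Cdk1 held 2 CHR words, the nearer starting at -15, and 1 E2F word starting at -131. The single CHR word of Ccnb1 started at -42, downstream of CCAAT words at -99 and -67. Ccnb2 had CHR words starting at -167 and, past the stretch shown, at 4, with 3 CCAAT words between them. Mcm6 held 3 E2F words, of which those starting at -110 and -106 overlap on opposite strands. The window of Cdk4 held none of the E2F, CHR or CCAAT words. It held 4 copies of CACGTG, a word searched only after this sequence had been seen. CACGTG is the E-box known to be read by Myc with Max and by related factors. Of the 42 members with a window 4 had the word (Cdk4, Cdk6, Cdkn2c and Tyms), against 11.6% of detected genes, and 4 of the 10276 detected genes had as many copies as Cdk4.

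**Figure D1:**
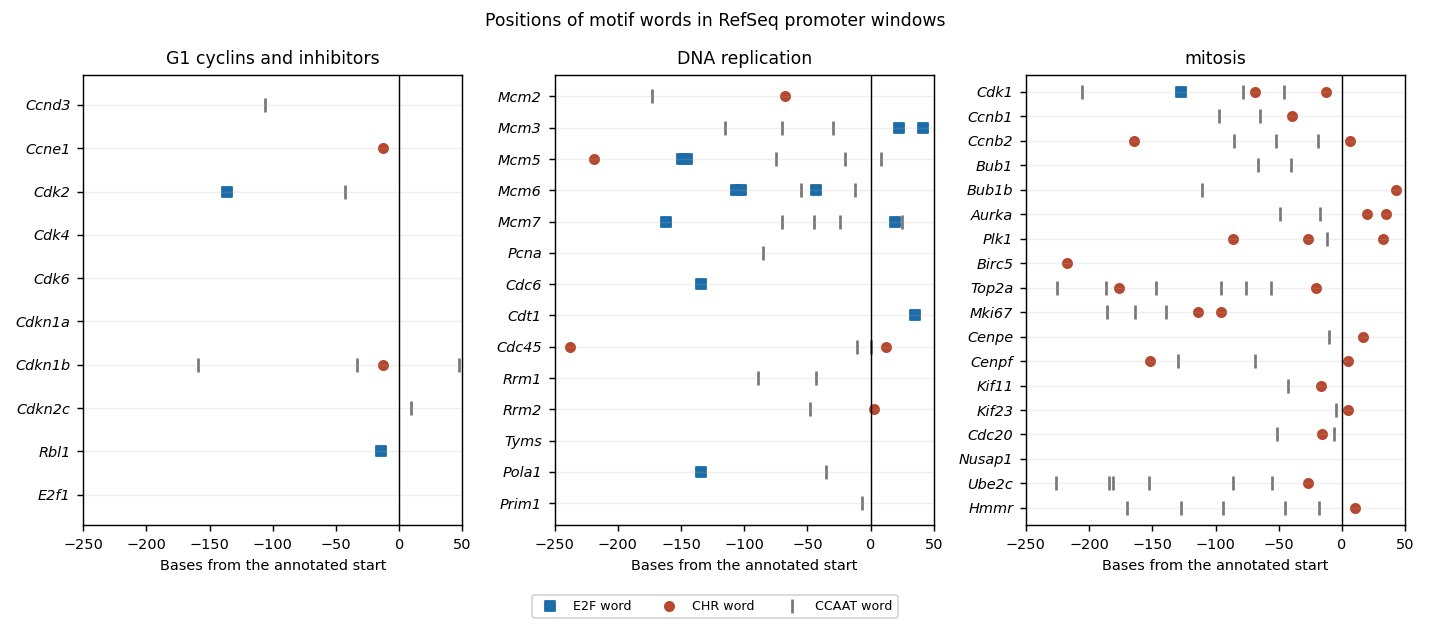
Positions of E2F, CHR and CCAAT words (symbols) in the RefSeq promoter windows of 42 members, by phase; the horizontal axis is the distance in bases from the annotated start. CHR words cluster near the start in the mitosis genes, and E2F words lie mostly in the replication genes.

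G1 genes spanned the widest range, 178-fold from E2f1 to Cdk4, with a median of 44.5 TPM in replicate 1 and 42.7 TPM in replicate 2. Among the D-type cyclins, the regulatory partners of Cdk4 and Cdk6, Ccnd3 stood at 399 and 393 TPM. Ccnd2 followed at 248 and 277 TPM and Ccnd1 at 91.7 and 106 TPM. In both libraries Ccnd3 therefore lay above Ccnd2, and Ccnd2 above Ccnd1. The log2 ratio of Ccnd1 over Ccnd2 was -1.41 ± 0.04 (SD, n = 2) and that of Ccnd2 over Ccnd3 was -0.59 ± 0.13 (SD, n = 2). Both exceeded the spread rule used for pairs of genes: in each library the ratio had to exceed, with 1 sign, the 95th percentile of the size of the log2 difference between libraries among the 500 detected protein-coding genes nearest in level.

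Cdk4 and Cdk6 encode the kinases that these cyclins activate, and they were far apart. Cdk6 stood at 10.6 and 12.1 TPM, 112-fold below Cdk4, with a log2 ratio of 6.81 ± 0.08 (SD, n = 2). Most of the TPM of Cdk4 belonged to transcripts that are not annotated as protein-coding. Counting protein-coding transcripts alone, Cdk4 stood at 429 and 453 TPM and the ratio was 38.7-fold. Cdk2, the partner of cyclin E, was at 77.2 and 84.2 TPM. Its cyclins Ccne1 and Ccne2 were at 55.2 and 52.1 TPM and at 33.7 and 33.3 TPM. Ccne1 exceeded Ccne2 by a log2 ratio of 0.68 ± 0.05 (SD, n = 2), past the spread rule.

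The kinase inhibitors differed by orders of magnitude. Cdkn1a (p21) stood at 144 and 101 TPM. Cdkn1b (p27) was at 14.5 and 14.1 TPM, and the Cdk4 and Cdk6 inhibitor Cdkn2c (p18) at 10.4 and 9.17 TPM. Cdkn1b thus lay 8.37-fold below Cdkn1a, and 85.7-fold below its relative Cdkn1c (p57), an imprinted gene outside the 53 that stood at 1271 and 1199 TPM.

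Among the pocket protein genes, whose products hold E2F in check, Rb1 stood at 21.4 and 23.2 TPM and Rbl1 (p107) at 15.3 and 15.5 TPM. That order depended on short noncoding transcripts of Rb1. On protein-coding transcripts Rb1 was at 6.58 and 8.35 TPM and Rbl1 at 8.79 and 8.49 TPM. Their log2 ratio of -0.22 did not pass the spread rule. For ratios over protein-coding transcripts, here and below, the rule kept the limit set from levels and differences over all transcripts. E2f1 was lowest of the group, and it could not be separated from its neighbour in the order, Cdkn2c. In all, 7 of the 13 neighbouring steps in the order of G1 genes passed the spread rule.

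Replication genes lay in a narrower band, 16.1-fold from Pola1 to Pcna, with medians of 79.4 and 84.3 TPM. The loading factors were low members: Cdt1, which brings the Mcm ring to origins, was at 25.9 and 25.6 TPM, and its partner Cdc6 at 19.8 and 19.2 TPM. Geminin (Gmnn), the inhibitor of Cdt1 and no member, stood 2.41-fold above Cdt1 at 64.3 and 60.3 TPM. The 6 genes of the Mcm2 to Mcm7 helicase ring, whose protein is built from equal numbers of each, lay within 2.04-fold of each other. Mcm5 was lowest at 74.4 and 75.9 TPM and Mcm6 highest at 148 and 159 TPM. Mcm7 was at 117 and 110 TPM, Mcm3 at 97.9 and 97.8 TPM, Mcm2 at 82.1 and 84.3 TPM and Mcm4 at 79.4 and 84.9 TPM. Only Mcm6 stood past the spread rule from the next ring gene in the order, Mcm7.

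The cofactors that turn the ring into the active CMG helicase were less even. Cdc45 was at 30.7 and 28.2 TPM and Gins1 at 33.0 and 35.1 TPM. Gins2 was at 81.2 and 70.1 TPM over all transcripts and at 13.8 and 15.7 TPM over protein-coding transcripts. With Gins3 and Gins4, which are no members, the 11 CMG genes spanned 11-fold, with Gins3 lowest at 14.9 and 13.0 TPM. This grouping, like those of the other complexes, was made after the values were seen. Gins2 exceeded Gins1 by a log2 ratio of 1.15 ± 0.21 (SD, n = 2) over all transcripts and lay below it by -1.10 over protein-coding ones, so their order reversed.

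Pcna, the sliding clamp, was the highest replication gene at 180.0 and 176 TPM. Pola1, the catalytic subunit of polymerase alpha and the only member on the X chromosome, was the lowest at 10.9 and 11.1 TPM. Its partner Prim1, the catalytic primase subunit, was at 56.8 and 58.6 TPM, 5.2-fold higher. The 4 subunit genes of polymerase alpha-primase spanned 5.24-fold. Of the genes that supply deoxynucleotides, the ribonucleotide reductase genes Rrm1 and Rrm2 were at 79.2 and 86.3 TPM and at 98.2 and 104 TPM. Rrm2 exceeded Rrm1 by a log2 ratio of 0.29 ± 0.03 (SD, n = 2), just past the spread rule of 0.26, and fell short of it on protein-coding transcripts at 0.24. Tyms, which makes thymidylate, was at 161 and 150 TPM, of which 14.9 and 14.0 TPM came from protein-coding transcripts. Of 16 neighbouring steps in the order of replication genes, 5 passed the spread rule.

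Mitosis genes spanned 20.7-fold, with medians of 56.6 and 63.3 TPM. Over all transcripts Cdk1, the kinase that starts mitosis, was highest at 311 and 319.6 TPM. On protein-coding transcripts it was at 164.7 and 168.4 TPM, below Ube2c (214 and 234 TPM) and Birc5 (205 and 212 TPM). Cdk1 stood 3.91-fold above Cdk2, or 2.06-fold on protein-coding transcripts. Its cyclins were close together. Ccnb1 was at 149 and 149.7 TPM, Ccna2 at 118 and 129 TPM and Ccnb2 at 109.9 and 113 TPM. Ccnb1 passed the spread rule over Ccnb2 (log2 ratio 0.42 ± 0.02, SD, n = 2) and did not over Ccna2 (0.27 ± 0.09, SD, n = 2).

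The genes that end mitosis by destroying cyclin were near the top: Ube2c, the ubiquitin-conjugating enzyme of the anaphase-promoting complex, at 214 and 234 TPM, and its activator Cdc20 at 146 and 154 TPM. Among mitotic kinases, Aurkb was at 83.7 and 89.2 TPM, Aurka at 65.6 and 75.9 TPM and Plk1 at 59.97 and 64.9 TPM. Aurka and Aurkb did not differ past the spread rule. Birc5 (survivin), which works with Aurkb in the chromosomal passenger complex, was at 205 and 212 TPM, and the 4 genes of that complex spanned 6.30-fold.

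The checkpoint kinase gene Bub1 was the lowest mitosis gene at 13.3 and 17.1 TPM, and its relative Bub1b (BubR1) stood 3.41-fold higher at 49.6 and 54.1 TPM. Of the chromosome and kinetochore genes, Top2a, which untangles DNA, was at 158 and 160.2 TPM. Cenpf was at 44.0 and 51.8 TPM and the kinetochore motor gene Cenpe at 19.9 and 20.4 TPM. On protein-coding transcripts Top2a was at 94.7 and 99.75 TPM and Cenpf at 25.49 and 28.37 TPM. The spindle motor genes Kif11, Kif20a and Kif23 were at 35.8 and 38.8, 51.2 and 60.8, and 31.4 and 35.1 TPM. The spindle assembly genes Tpx2, Nusap1 and Hmmr were at 53.3 and 61.8, 39.8 and 44.8, and 26.01 and 30.7 TPM. Mki67, the proliferation marker Ki-67, was at 36.6 and 40.9 TPM, 4.59-fold below Pcna, a second common marker of proliferation. Of the 21 neighbouring steps in the order of mitosis genes 4 passed the spread rule, so most of this order cannot be resolved with these libraries.

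**Figure D2:**
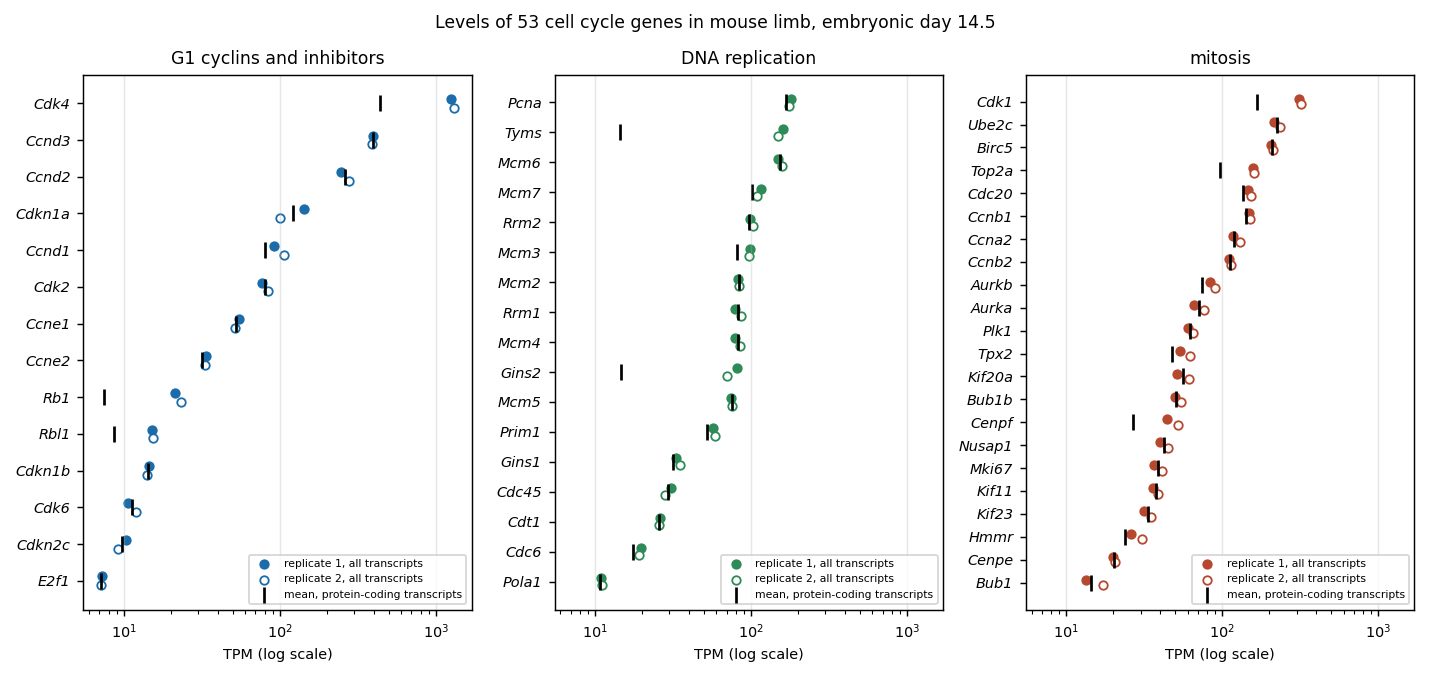
TPM (log axis) of each member in replicate 1 (filled) and replicate 2 (open), by phase, with the mean over protein-coding transcripts as a black bar. The libraries nearly coincide for most genes, and the bar falls far to the left of the points for Cdk4, Tyms, Gins2 and Rb1. It lies less far to the left for Cdk1, Cenpf, Rbl1 and Top2a.

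Mitosis genes of greater effective length had lower TPM. That length depends on the transcripts to which the reads of a gene were assigned. For Cdk1 it was 794 and 788, while its leading transcript has 1253 nt. Spearman's rho between mean TPM and effective length was -0.74 across the 22 mitosis genes, -0.19 across the 17 replication genes and -0.25 across the 14 G1 genes. Across 13191 detected protein-coding genes it was -0.29. These values describe genes of the same libraries, and effective length enters TPM itself as the divisor. Mki67 shows what this means: its 8401 and 8748 counts exceed the 5688 and 5406 counts of Cdk1, while its TPM is far lower.

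In all, 19 of the 21 pairs of related genes passed the spread rule, and 17 did with a pseudocount of 1 or on protein-coding transcripts. On protein-coding transcripts Gins2 over Gins1 passed with the opposite sign, at -1.10 against 1.15. The rule therefore does not cover how reads were shared among transcripts. Cdt1 over Cdc6, at a log2 ratio of 0.40, missed the rule with a pseudocount of 1 and with the deposited posterior mean TPM (0.38 under both). The exact sign-flip test over 2 libraries cannot go below p = 0.5, so no p-value is given for a pair. Both exceptions, Ccnb1 with Ccna2 and Aurka with Aurkb, passed in replicate 1 alone.

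**Figure D3:**
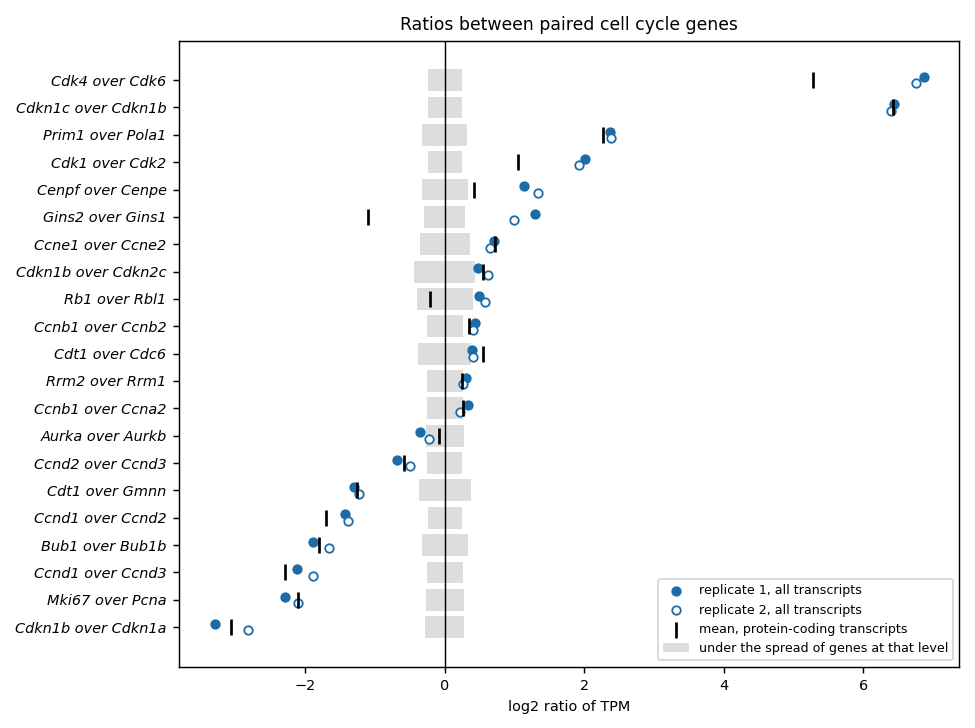
The log2 ratio of TPM for 21 pairs of genes in replicate 1 (filled) and replicate 2 (open), with the ratio over protein-coding transcripts as a black bar; grey bands mark the spread between libraries of genes at that level. Cdk4 over Cdk6 is widest at 6.81, and the bars of Gins2 over Gins1 and Rb1 over Rbl1 lie on the other side of 0.

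The leading transcript of each member was the same in both libraries. Of the 53 genes 12 had 1 annotated transcript, and all 41 others kept their leading transcript. Among all genes that had several transcripts and averaged at least 1 TPM, not matched in level to the members, 90.8% kept theirs. The leading transcript was protein-coding in 48 genes. In 5 it was a short transcript that is not. A retained-intron transcript of 468 nt, Cdk4-209, held 40.1% and 40.2% of the TPM of Cdk4. The retained-intron transcript Gins2-204, of 511 nt, held 70.8% and 69.9% of that of Gins2. For Tyms the leader was Tyms-205, of 797 nt and typed as a target of nonsense-mediated decay, with 46.2% and 43.3%. Rb1-206, a processed transcript of 408 nt, held 40.8% and 52.1% on 62.0 and 80.3 counts. Cenpf-201, of 609 nt and also typed as a decay target, held 35.0% and 37.1%.

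Because these transcripts are short, few counts give them a high TPM. Protein-coding transcripts held 30.7% and 35.9% of the TPM of Rb1 and 85.0% and 86.9% of its counts. For Cenpf the shares were 58.0% and 54.8% of TPM and 93.6% and 92.6% of counts. Cdk4 and Tyms differed from these: protein-coding transcripts held 51.2% and 51.0% of the counts of Cdk4 and 25.9% and 24.9% of those of Tyms. Gins2 lay between, with 59.8% and 70.7% of its counts in its protein-coding transcript. In 9 genes protein-coding transcripts held under 80% of the TPM in at least 1 library: these 5, Cdk1, Rbl1, Top2a and, in replicate 2 alone, Ccnd1 at 79.9%. The types come from a later annotation release than the one quantified, and how reads were shared among overlapping transcripts cannot be checked from the tables.

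**Figure D4:**
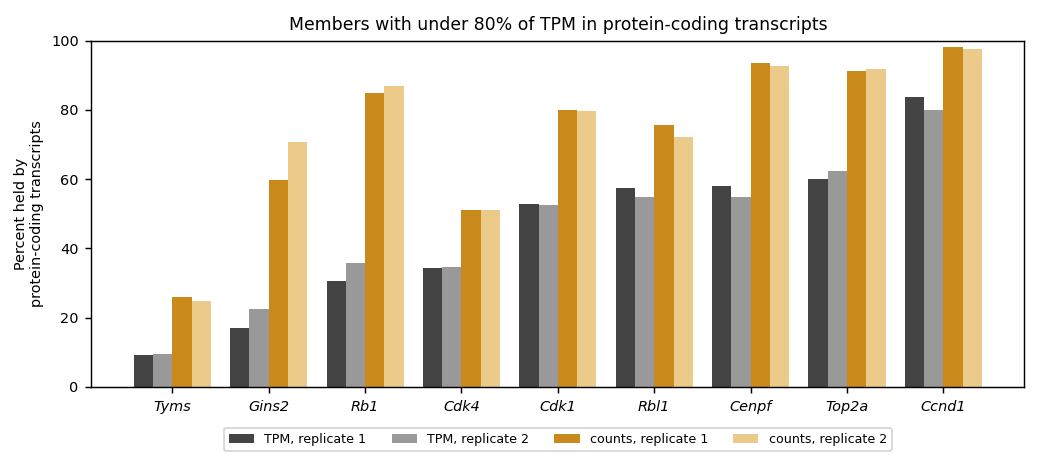
Percent of TPM (grey) and of expected counts (ochre) held by protein-coding transcripts in each library for the 9 members below 80% of TPM. The share of counts exceeds that of TPM for every gene, and Tyms is lowest on both.

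The libraries differed little in these genes. The median absolute log2 ratio of TPM between them was 0.10 for the members and 0.13 for detected protein-coding genes. Most members lay above the median level of those genes, and no set matched in level was compared. In an exact binomial test of rounded counts with Benjamini-Hochberg adjustment over 19153 genes, which covers counting error only, 11 members were higher and 9 lower in replicate 2 at an adjusted p under 0.05. Among all genes tested 12.7% were higher and 14.8% lower. Among protein-coding genes with at least the 763 summed counts of the lowest member these shares were 16.8% and 19.6%. The members' counts of 11 and 9 of 53 are near those shares. With the exact test of edgeR no member passed the adjusted threshold, against 113 of 16920 genes or 0.668%. At an unadjusted p under 0.05 none was higher and 1 was lower, Cdkn1a, against 6.62% of genes in either direction. The dispersion for that test was estimated from the very libraries it compares, so their typical difference counts as error, and a gene that misses its threshold is not shown to be alike in both.

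By TMM-normalized counts the calls differed in direction by phase. Of 22 mitosis genes 8 passed the binomial test, all higher in replicate 2, namely Bub1, Kif20a, Hmmr, Aurka, Tpx2, Nusap1, Mki67 and Ccna2. Of 17 replication genes 5 passed, Cdc45, Gins2, Mcm7, Pcna and Tyms, and all were lower there by their gene counts. For Gins2 this held over all transcripts only. Its gene counts fell from 2018 to 1810, while those of its protein-coding transcript rose from 1206 to 1280. Of 14 G1 genes Rb1, Ccnd2 and Ccnd1 were higher and Cdkn1a, Ccne1, Ccne2 and Ccnd3 lower. The shares of all genes tested were 12.7% higher and 14.8% lower. Those of protein-coding genes with at least 763 summed counts were 16.8% and 19.6%. For Kif20a the counts were 4083 and 4522, a log2 ratio of TMM-normalized counts of 0.17 with a 95% counting interval of 0.11 to 0.23 (exact binomial test, adjusted p = 1.2e-06). For Cdc45 they were 1325 and 1132, a log2 ratio of -0.21 with an interval of -0.32 to -0.09 (exact binomial test, adjusted p = 0.0028). These directions depended in part on the scaling. With total counts 12 mitosis genes were higher and 0 lower, and 2 replication genes were higher and 3 lower, where 17.4% of all genes tested were higher and 11.7% lower. With spike-in scaling 15 mitosis genes were higher and 0 lower, and 4 replication genes were higher and 2 lower, where 21.8% of all genes were higher and 9.77% lower. With DESeq2 size factors 7 mitosis genes were higher and 1 lower, and 0 replication genes were higher and 6 lower. Under those factors 12.0% of all genes tested were higher and 15.9% lower. The intervals of the genes of 1 phase are not independent evidence, since each library is a single sample.

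By TPM, 22 of 22 mitosis genes, 9 of 17 replication genes and 7 of 14 G1 genes were higher in replicate 2, where 65.4% of all genes averaging at least 1 TPM were higher. By TMM-normalized counts the numbers were 15 of 22, 5 of 17 and 6 of 14, against 49.2%. The median log2 ratio by these counts was 0.05 for mitosis, -0.05 for replication, -0.08 for G1 and -0.00 for all genes. By TPM the medians were 0.13, 0.02, 0.00 and 0.07 in the same order. Single genes also differed between the scalings through the effective length that enters TPM: the log2 ratio of Rb1 was 0.12 by TPM and 0.24 by counts, that of Cenpf 0.24 and 0.07. Relative to the median of all genes, 15 of 22 mitosis and 5 of 17 replication genes were higher under either scaling. Whether the difference between the phases would recur in further samples was not tested.

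**Figure D5:**
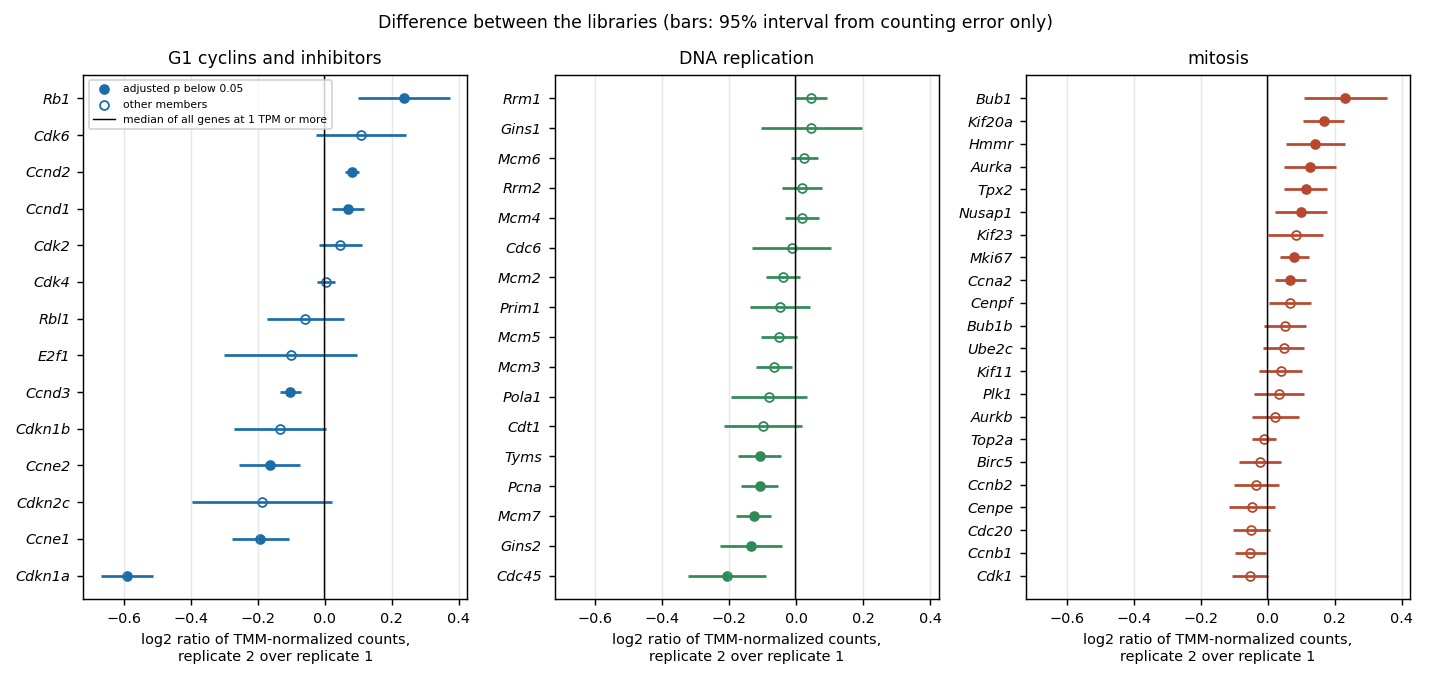
The log2 ratio of TMM-normalized counts, replicate 2 over replicate 1, for each member with its 95% counting interval; filled points had an adjusted p under 0.05 in the exact binomial test, and the vertical line is the median of all genes. Mitosis genes lie mostly at or right of the line, replication genes mostly at or left of it, and Cdkn1a is far to the left.

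Cdkn1a was the member that differed most. It fell by 0.52 in log2 TPM from replicate 1 to replicate 2 and by 0.59 in log2 normalized counts, on 3334 and 2182 counts (exact binomial test, adjusted p = 1.1e-48; edgeR's exact test, adjusted p = 0.22). Past a log2 ratio of 0.32 in TPM it was the only member that was lower, against 7.43% of all genes, and Bub1 was the only member that was higher, against 12.3%. Bub1 did not reach that size by normalized counts, at a log2 ratio of 0.23. Cdkn1a is known to be expressed in differentiating muscle. All 4 muscle markers tested were also lower in replicate 2, with a summed level of 1275 and 929 TPM: Myog was at 115 and 90.5 TPM, Myh3 at 158 and 112 TPM, Actc1 at 966 and 695 TPM and Myod1 at 36.9 and 32.5 TPM. All 5 red cell markers were lower as well, from a sum of 25915 to 17221 TPM, and so was the epidermal gene Krt10, at 96.9 and 67.6 TPM. The other epidermal genes tested moved less, with Krt5 at 165 and 157 TPM and Krt14 at 386 and 374 TPM. The cartilage genes were mixed: Matn1 was at 86.7 and 67.2 TPM, Acan at 33.8 and 29.9 TPM, Col2a1 at 584 and 587 TPM and Sox9 at 75.6 and 102 TPM. The 6 limb markers were higher, from a sum of 217 to 274 TPM. The part of these cell types in the level of Cdkn1a, and in the differences of the other members, was not tested.

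The wider set of cell cycle genes lay lower than the 53. Of 98 further genes in 7 lists 95 were detected, with a median of 32.9 TPM against 70.8 TPM for the members. In the exact binomial test 9 were higher and 14 lower in replicate 2, against 12.7% and 14.8% of all genes tested. Past a log2 ratio of 0.32 in TPM, 5 were higher and 3 lower, against 12.3% and 7.43% of genes averaging at least 1 TPM. The 16 genes of the E2F and DREAM regulators had a median of 16.1 TPM, from E2f2 at 4.88 TPM to Tfdp1, the common E2F partner, at 126 TPM. Of 13 regulators of cyclin-dependent kinases, Cks1b was highest at 365 TPM, and Ccnb3, a cyclin known from germ cells, was at 0.03 TPM. Origin genes ran from Orc1 at 7.09 TPM to Orc4 at 73.2 TPM with a median of 29.6 TPM, and 20 replisome genes had a median of 70.8 TPM with Rfc2 highest at 113 TPM.

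Checkpoint genes ran from Zwilch at 13.2 TPM to Bub3 at 142 TPM, and the 20 chromosome and spindle genes from Kif18b at 5.13 TPM to Cenpa, the centromeric histone, at 177 TPM. In the last list 6 genes were higher and none lower in replicate 2 by the exact binomial test. In the replisome list none was higher and 5 were lower. Over all genes tested the shares were 12.7% higher and 14.8% lower. Among abundant protein-coding genes they were 16.8% higher and 19.6% lower, and 5 lower of 20 is near the latter share. Of the 4 further inhibitors Cdkn1c was highest at 1235 TPM, and Cdkn2a (p16 and p19Arf) had 1 count in replicate 1 and 0 in replicate 2.

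Some levels may hold reads of other genes, since the sources used here do not give the strand of the libraries. Exons of expressed genes on the opposite strand overlap those of 15 members. The neighbours with the highest TPM are the muscle troponin gene Tnnc2 beside Ube2c (308 and 209 TPM), Cops6 beside Mcm7 (201 and 205 TPM), Elovl1 beside Cdc20 (103 and 81.7 TPM), Cdc23 beside Kif20a (95.3 and 107 TPM) and Rcbtb2 beside Rb1 (75.8 and 84.3 TPM). Tspan31 beside Cdk4 stood at 40.0 and 46.9 TPM. The named pseudogenes of Pcna, Ccnb1, Ccnb2 and Ccnd3 stood at 1.62 TPM or below in both libraries, so few reads were assigned to them.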

How the data were processed

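RNA longer than 200 nt from the limb was sequenced in 2 libraries with spike-ins. Reads were aligned to mm10 with GENCODE M4, as filed with the samples. The sources used here do not name the quantification program, its version or the strand. The expected counts were deposited by the authors as estimated reads per gene or transcript, per the file headers. TPM, as deposited by the authors, is abundance per length scaled to 1 total. Percent of a gene's TPM per transcript and posterior mean TPM were deposited by the authors too. Symbols, positions and transcript types were matched by identifier to GENCODE M21 on GRCm38, and promoters by symbol to RefSeq on GRCm38.p6. Of 46 member windows, 41 matched a reference transcript in sense.

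Ratios used log2(TPM + 0.1), which understates changes of low genes. Expected counts were rounded for the two-sided exact binomial test given TMM library sizes (edgeR 4.0.16), for genes with 10 or more summed counts, with Benjamini-Hochberg adjustment at 0.05. edgeR's quasi-likelihood test has no residual degrees of freedom here. The binomial test was checked on simulated counts that varied by counting error alone, so the check does not cover other variation between libraries. The deposited intervals on a member's TPM in a library had a mean half-width of 4.95% of its posterior mean TPM. Counting intervals on a member's ratio do not cover more than counting error, since no molecular identifiers are noted. Python 3.11.15 and R 4.3.3 with DESeq2 1.42.0 (size factors) were used.

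The 53 members and the lists were chosen with earlier results of these data known. All members could be named; other list genes were named where highest or lowest of their list or in a pair, and markers as checks. Muscle, cartilage and epidermal markers, Gins3 and the overlapping genes were named after their values were seen. Promoters shown were those of the highest member of each phase over all transcripts, Ccnb1 and Ccnb2, and Mcm6 by later choice. Some list genes are not reported here.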

Additional observations from a re-analysis of the deposited data

How the results depend on the processing

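The alternatives were other TPM minimums, pseudocounts, count filters and scalings, posterior mean TPM, each library alone, other fold sizes and a shorter promoter window. TPM of protein-coding transcripts, counts per length of the longest coding transcript and the scalings of the counts of genes above 0 were added after seeing the data. All 53 members stayed detected at minimums of 0.5 and 5 TPM. The median of G1 genes was 42.4 TPM over protein-coding transcripts and 42.0 per longest coding transcript, against 43.6, and that of replication genes 75.1 TPM under both, against 82.2. Over protein-coding transcripts the log2 ratio reversed for Rb1 over Rbl1 (-0.22) and Gins2 over Gins1 (-1.10), and the latter passed the spread rule with its new sign. No other alternative reversed a pair. Pairs past the spread rule numbered 17 with a pseudocount of 1, 18 with posterior mean TPM, 17 over protein-coding transcripts and 19 to 21 in 1 library alone, against 19; Cdt1 over Cdc6 lost its call with a pseudocount of 1 and with posterior mean TPM (0.38 each) and Rrm2 over Rrm1 with a pseudocount of 1 (0.28) and over protein-coding transcripts (0.24). Members higher in replicate 2 by the binomial test numbered 19 with total counts and 25 with spike-in scaling, and those lower numbered 5 with spike-in scaling; of all genes 17.4% and 21.8% were higher and 9.77% lower under the same scalings, against 12.7% and 14.8% as reported. With edgeR's exact test there were 0 in each direction, and at an unadjusted p under 0.05 there were 0 higher and 1 lower. Past 1.5-fold 0 members were higher and 0 lower, and past a log2 ratio of 0.32 there were 0 higher ones with TMM-normalized counts or with spike-in scaling. Replication genes with a ratio above 0 numbered 5 with TMM or DESeq2 scaling. From 100 bases before the start, E2F words stood in 1 G1, 4 replication and 0 mitosis genes, against 2.54% of detected protein-coding genes. No paired analysis was possible because there is 1 group. Depth limits Cdkn2c most, at 409 and 354 counts.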
